A study of Mus musculus with 5 samples.

Results

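Kupffer cells, the resident macrophages of the liver, were described in 1 single-cell RNA sequencing library of mouse liver, the library labelled VitA-Col1a1- of the DEN+WAD group. The cells were chosen by their RNA: a barcode was taken as a Kupffer cell when it held 1000 or more UMIs (unique molecular identifiers, each standing for 1 captured RNA molecule), at least 3 of the 5 macrophage genes C1qa, C1qb, C1qc, Csf1r and Adgre1, at least 2 UMIs of Clec4f and no UMI of Cd3e. In addition, the stellate and fibroblast genes Dcn, Col3a1 and Colec11 had to sum to less than 20 per 10000 UMIs. This rule selected 670 of the 9870 barcodes of the library, and of 24007 barcodes in all 5 libraries of the series. The share was 6.79% of the library (exact binomial 95% interval 6.30 to 7.30%), and this interval, like the others given here, covers counting error only.

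The mice were male Rosa26mTmG;Col1a1-Cre animals on a C57BL/6J background, in which Cre is driven by the Col1a1 promoter and GFP marks cells that have used it. They received diethyl nitrosamine (DEN), a liver carcinogen, at 10 mg/kg, or saline, at the age of 2 weeks. From 6 weeks of age they were fed for 5 months either a Western alcohol diet (WAD) with ethanol at 3.5% by volume, or chow. Non-parenchymal cells, freed by perfusing the liver with collagenase and pronase, were sorted by the autofluorescence of vitamin A (VitA) and by GFP. Both diets gave 1 library of VitA+Col1a1+ and 1 of VitA-Col1a1+ cells, and only DEN+WAD gave 1 of VitA-Col1a1- cells, with 5 in all and no statement of how many animals each held. The question asked here was what RNA these macrophages held and how it differed from that of the other cells caught with them. There was no replicate and no chow library of the same gate, so no test was made and no effect of DEN+WAD on Kupffer cells can be given.

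Kupffer cells line the liver sinusoids, where they take up blood-borne particles, microbes and ageing red cells and return the iron to the blood. They arise before birth from yolk sac and fetal liver precursors and renew themselves by division, while monocytes from the blood can enter the emptied niche in injured liver and acquire much of the same phenotype. Their identity depends on signals from endothelial, stellate and hepatic cells around them, and Clec4f, a C-type lectin, is restricted to them in the mouse.

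Of the genes that mark these cells, Clec4f (ENSMUSG00000014542) lies on the minus strand of chromosome 6 at chr6:83644542-83656187 in the mm10 annotation (GENCODE M21). Cd5l lies at chr3:87357881-87371073 on the plus strand, Vsig4 at chrX:96247203-96293438 on the minus strand, and Timd4 at chr11:46810800-46844332 on the plus strand. Marco is at chr1:120474538-120505024 on the minus strand and C6 at chr15:4727175-4814967 on the plus strand. RefSeq promoter windows (build GRCm38.p6, from 250 bases before to 50 after the start of the gene) were found for 13 of 17 genes that mark Kupffer cells or led them over other macrophages, in 14 windows. The windows of 4 of the markers are shown, and each holds the hexamer marked in capitals. Those of C6 and Marco hold none and are not shown. Capitals mark the hexamer TGCTGA, or its reverse complement where it lies on the other strand, which is part of sites that some basic leucine zipper factors are known to bind. Each sequence reads 5′ to 3′ on the strand of its gene.

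Clec4f, chr6:83656067-83656366, minus strand: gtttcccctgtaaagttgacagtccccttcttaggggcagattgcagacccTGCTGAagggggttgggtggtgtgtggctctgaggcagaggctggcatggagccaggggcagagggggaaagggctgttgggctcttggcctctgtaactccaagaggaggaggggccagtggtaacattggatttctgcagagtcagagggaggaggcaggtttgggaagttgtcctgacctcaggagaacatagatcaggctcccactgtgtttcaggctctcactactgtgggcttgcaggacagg
Cd5l, chr3:87357631-87357930, plus strand: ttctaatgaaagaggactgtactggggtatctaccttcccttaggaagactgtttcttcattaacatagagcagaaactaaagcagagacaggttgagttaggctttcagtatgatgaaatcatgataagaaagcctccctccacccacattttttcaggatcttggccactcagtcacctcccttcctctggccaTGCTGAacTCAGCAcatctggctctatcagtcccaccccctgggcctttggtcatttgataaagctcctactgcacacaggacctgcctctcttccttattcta
Vsig4, chrX:96293389-96293688, minus strand: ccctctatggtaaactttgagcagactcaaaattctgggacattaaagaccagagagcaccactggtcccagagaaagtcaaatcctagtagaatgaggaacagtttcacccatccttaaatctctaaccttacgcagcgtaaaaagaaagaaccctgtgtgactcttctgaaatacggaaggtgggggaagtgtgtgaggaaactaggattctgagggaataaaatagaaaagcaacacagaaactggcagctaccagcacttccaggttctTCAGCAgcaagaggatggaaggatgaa
Timd4, chr11:46810549-46810848, plus strand: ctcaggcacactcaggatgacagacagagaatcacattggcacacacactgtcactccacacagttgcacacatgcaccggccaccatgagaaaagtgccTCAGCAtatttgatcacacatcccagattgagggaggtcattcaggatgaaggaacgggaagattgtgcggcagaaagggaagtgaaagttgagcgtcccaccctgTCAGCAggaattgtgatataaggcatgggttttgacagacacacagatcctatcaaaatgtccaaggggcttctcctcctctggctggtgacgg

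The windows of Cd5l and Timd4 hold 2 matches each, those of Clec4f and Vsig4 hold 1, and that of C6 holds 0. In all, TGCTGA on either strand was in 8 of the 14 windows, which belong to 7 genes (Cd5l, Clec4f, Fabp7, Fcna, Folr2, Timd4 and Vsig4), and in 19.5% of all 32851 windows of this length. It was 1 of 5 motifs searched, and the other 4 were strings of the kind that the macrophage factor PU.1 and its ETS relatives recognise, each searched on both strands and overlapping the others. The shortest, GAGGAA, was in 6 of the 14 windows and in 28.3% of all windows. Its first extension, with the letters GAGGAAG, was in 4 windows and in 13.6% of all. The longest of them, with the letters GAGGAAGT, was in 1 window and in 3.20% of all. The last string searched, AGGAAGT without the leading G, was in 4 windows and in 9.35% of all. These matches describe the letters of the windows and are not evidence of binding.

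The library labelled VitA-Col1a1- held 105670468 UMIs, with a median of 9105.5 per barcode. It stood apart from its labels: the stated cell type is hepatic stellate cell and the sort was against Col1a1, yet 4588 of its barcodes had the RNA of stellate or fibroblast cells, 1993 that of sinusoidal endothelial cells, and Col1a1 was at 1939 CPM (counts per 1000000 UMIs) in the former. Kupffer cells had a median of 18750.5 UMIs, 3945.5 genes and 4.24% mitochondrial UMIs, against 8829.5 UMIs in the other 9200 barcodes. None of the other 4 libraries held a cell that met the rule. Among their 259 to 10481 barcodes a count of 0 allows a share of up to 0.0286% to 1.16%, and their Clec4f sums were 1, 0, 0 and 0 UMIs. The library shared 21, 5, 1 and 1 barcodes with these libraries, of which 1, 0, 0 and 1 were Kupffer cells. The doublet caller Scrublet marked 16 of the 670 Kupffer cells, 2.39%, against 2.38% of the library.

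The genes of the rule are given first as a description. Clec4f ranged from 2 to 315 UMIs per Kupffer cell, with quartiles of 19, 60 and 112. Summed over the cells it was at 3814 CPM, against 11.4 CPM in stellate or fibroblast cells, which should lack it. The complement C1q chains C1qa, C1qb and C1qc were at 5030, 5312 and 3621 CPM, the CSF1 receptor Csf1r at 946 CPM and Adgre1, which encodes F4/80, at 508 CPM.

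At the edge of the rule, the 24 cells with 2 Clec4f UMIs, just inside it, had a median of 3376.5 UMIs, with Vsig4 at 410 CPM, Marco at 981 and Cd5l at 4669. The 63 cells with 1 Clec4f UMI, just outside it, had a median of 10934 UMIs, with Vsig4 at 356 CPM, Marco at 43.7 and Cd5l at 3966. Timd4, C6 and Fcna were at 110, 110 and 676 CPM inside and 7.29, 10.9 and 183 outside. Cells on both sides thus carried Cd5l and Vsig4, with Cd5l somewhat higher inside (4375 to 4979 against 3831 to 4104). Marco, Timd4, C6 and Fcna differed more and were higher inside. The 24 cells inside held 199809 UMIs in all, so a few cells can set these levels.

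Most Kupffer cells lay in 1 cluster when the library was clustered without the genes of the rule. That cluster of 912 cells held 524 Kupffer cells, 78.2% of them, with 277 macrophages lacking Clec4f, and was led by Mmp12, Cd5l, Lyz2, Vsig4 and Ctss. A cluster of 301 barcodes with a median of 1020 UMIs held a further 87, and a cluster of 63 cells led by genes of cell division held 45. Cd5l and Vsig4, markers that the rule did not use, led the main cluster, and Cd5l was present in 667 of the 670 cells. Cd5l was also present in 260 of the 388 macrophages lacking Clec4f, so neither the cluster nor Cd5l set these groups apart. Vsig4 was present, at full depth, in 81.6% of the cells of the rule and 18.3% of those macrophages. The name Kupffer cell was kept for the cells of the rule.

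Kupffer cells were set beside 3 groups of the same library: all 9200 other barcodes, 1993 sinusoidal endothelial cells, and 388 macrophages without a Clec4f UMI that passed the other parts of the rule (Clec4f-negative macrophages, 3.93% of the library, median 12114 UMIs). A gene is called higher or lower where its level differed 2-fold or more on the log2(CPM + 5) scale, which understates the difference of low genes. These calls describe 1 library each way and carry no test. Against all other cells, 972 of 10263 genes were higher in Kupffer cells (9.47%) and 2301 lower (22.4%). Against endothelial cells 1135 of 9796 were higher (11.6%) and 2299 lower (23.5%). With TMM scaling, which sets the bulk of genes to equal levels, this latter split became 1603 higher and 1633 lower, as the median gene moved from -0.31 to 0.04 on the log2 scale. Against all other cells it moved from -0.26 to -0.02, with 1262 higher and 1959 lower. Against Clec4f-negative macrophages 105 of 9071 genes were higher (1.16%) and 341 lower (3.76%), with a median gene at 0.004. These shares are the background of every list count below, and for lists of 11 to 21 genes a count of 0 or 1 against Clec4f-negative macrophages is near them.

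The surface and secreted genes that define Kupffer cells were higher than in Clec4f-negative macrophages for 12 of 15, beside 1.16% of all genes, with a median of 1.63 on the log2 scale. Cd5l, a secreted protein of the scavenger receptor family that keeps macrophages from apoptosis, was at 7881 CPM against 3602. The complement receptor Vsig4, which captures C3b-coated particles, was at 1262 CPM against 159, a ratio of 7.92 (95% interval 7.41 to 8.47). Timd4, a receptor for phosphatidylserine on dying cells, was at 193 CPM against 9.75, a ratio of 19.8 (15.2 to 26.2).

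Marco, a collagen-like scavenger receptor for bacteria, stood at 844 CPM against 42.9, a ratio of 19.7 (17.3 to 22.4). The folate receptor Folr2 was at 918 CPM against 136. C6, a component of the membrane attack complex, led this comparison on the log2(CPM + 5) scale among genes at 50 CPM or more, at 306 CPM against 8.04 (38.0, 28.6 to 51.9). In stellate or fibroblast cells C6 was at 75.9 CPM and Fcna, a ficolin that starts the lectin pathway, at 164 CPM, so these 2 genes were not limited to Kupffer cells. Fcna was at 748 CPM in Kupffer cells and 126 in the other macrophages. The haemoglobin scavenger receptor Cd163 was low throughout, at 12.6 CPM against 0.342.

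**Figure D1:**
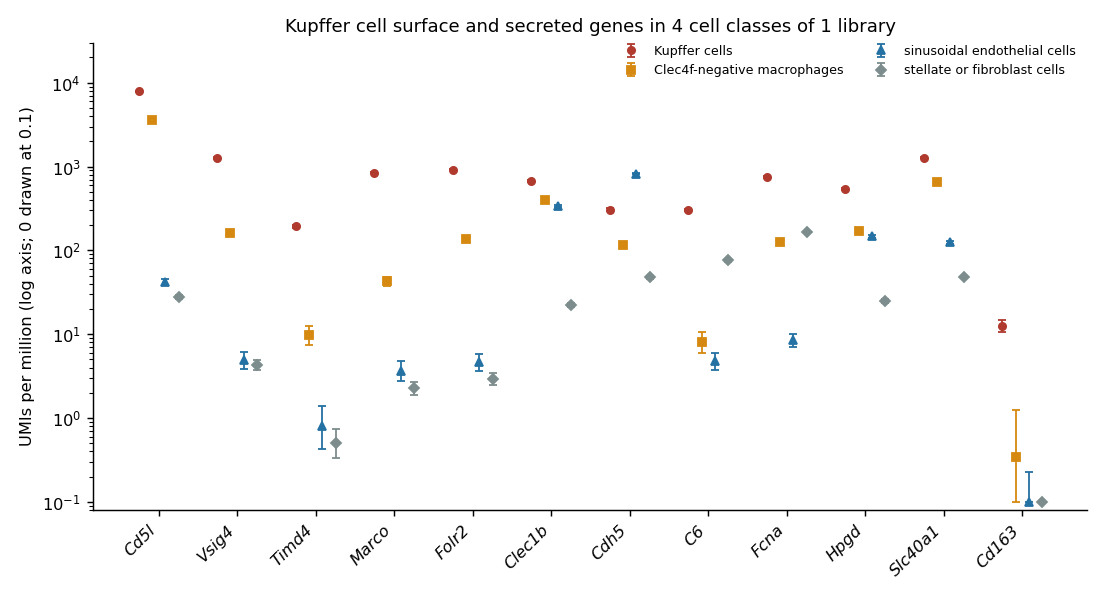
Levels in CPM (log axis) of Kupffer cell surface and secreted genes in the Kupffer cells, Clec4f-negative macrophages, sinusoidal endothelial cells and stellate or fibroblast cells of 1 library, with bars for the exact Poisson 95% intervals. Marco (844 against 42.9 CPM), Timd4 (193 against 9.75) and C6 (306 against 8.04) lie well above the Clec4f-negative macrophages, and Cdh5 is highest in endothelial cells, at 823 CPM.

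The 3 members of the list that were not called were Slc40a1, Il18bp and Clec1b. Slc40a1, the iron exporter ferroportin, was at 1273 CPM against 649, Il18bp, a decoy for IL-18, at 777 against 487, and Clec1b, a receptor for podoplanin, at 675 against 400. Cdh5, known as the endothelial cadherin, was at 306 CPM in Kupffer cells, 116 in Clec4f-negative macrophages and 823 in endothelial cells. Set against all other cells, 14 of the 15 genes were higher, beside 9.47% of genes, and against endothelial cells 13, with Cdh5 lower, beside 11.6% and 23.5%. With TMM scaling Cdh5 was within 2-fold of endothelial cells.

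The Clec4f-negative macrophages were a mixed group in their Cd5l. It was present in 260 of their 388 cells, and the 39 cells with the most held 53.9% of the Cd5l UMIs. Per 100 UMIs of Cd5l, Vsig4 stood at 16 in Kupffer cells, 4.42 in Clec4f-negative macrophages, 11.6 in endothelial cells and 15.6 in stellate or fibroblast cells. Marco stood at 10.7, 1.19, 8.78 and 8.19 per 100, and Timd4 at 2.45, 0.271, 1.93 and 1.83. The Clec4f-negative macrophages thus had Cd5l with little of the other 3, unlike the endothelial and stellate cells, whose ratios for these 3 genes were nearer those of Kupffer cells.

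When only the 156 Clec4f-negative macrophages with under 1 Cd5l UMI per 10000 were kept, an alternative chosen after the data were seen, 347 genes were higher in Kupffer cells and 836 lower. With all 388 of these macrophages the counts over all genes were 105 and 341, so calls rose well beyond the lists. All 15 surface and secreted genes were then higher, with a median of 4.37, and 6 of 16 transcription factors. Cd5l belongs to the surface list, and its call was fixed by this choice of cells. Genes that go with Cd5l are affected too, so these counts are a description and no support for the list. Without the barcodes marked as doublets or holding 3 or more markers of another cell type, 254 Kupffer cells and 155 Clec4f-negative macrophages were left, and 184 genes were higher and 137 lower.

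RNA of other cell types was present in both macrophage groups. The summed hepatocyte markers were at 292 CPM in Kupffer cells and 2396 in Clec4f-negative macrophages, where 1 cell held 4288 of the 7121 Alb UMIs. Albumin was at 139 CPM against 1218, and Ttr, Apoa1, Serpina1a, Serpina1e, Rbp4, Ahsg and Fabp1, all secreted or lipid-binding hepatocyte products, were among the 15 genes with the lowest Kupffer cell level relative to these macrophages on the log2(CPM + 5) scale, at 50 CPM or more in the higher group. Without doublets and mixed barcodes, Fabp1 and Serpina1e were no longer lower, at 0.0077 and 0.15 on the log2 scale. Fabp1 was itself among the hepatocyte markers by which mixed barcodes were found. Its change was thus partly set by that filter, which removes barcodes rich in hepatocyte RNA. Apoa1 stood at 42.2 UMIs per 100 Alb UMIs in Kupffer cells, 42.9 in Clec4f-negative macrophages and 39.1 in barcodes with under 1000 UMIs, in which Alb reached 10059 CPM. The sum of endothelial markers was 257 CPM in Kupffer cells against 701 and 9355 in Clec4f-negative macrophages and endothelial cells, and that of stellate and fibroblast markers 198 against 167 and 25862. T or NK cell markers summed to 1.5 CPM and B or plasma cell markers to 3.79 CPM in Kupffer cells. A cluster led by endothelial genes such as Kdr and Clec4g held 25 of the 388 Clec4f-negative macrophages and 8 of the 670 Kupffer cells. Another, led by Esm1, held 10 and 1. The part of other cells' RNA, and of such barcodes, in the differences was not tested.

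When every cell was thinned to 2000 UMIs, which left 625 Kupffer cells and removed 45, the markers differed in how many cells they reached. Cd5l was detected in 98.6% of Kupffer cells, 52.3% of Clec4f-negative macrophages and 8.46% of endothelial cells. Vsig4 was detected in 72.5%, 9.54% and 1.13%, and Folr2 in 73.0%, 12.5% and 0.516%. Timd4 was detected in only 24.8% of Kupffer cells (21.5 to 28.4%), 1.09% of Clec4f-negative macrophages and 0.103% of endothelial cells. Marco was similar, at 27.0%, 1.91% and 1.13%. Endothelial cells should lack these genes, and their shares give a background, at a median of 7918 UMIs before thinning. This background may be too low, because barcodes with a Clec4f UMI were left out of the endothelial group. Barcodes with enough of the macrophage genes to meet that part of the rule were left out of it too. Among stellate or fibroblast cells 12.4% held a Clec4f UMI, without thinning. Without thinning the Kupffer cell shares were 99.6% for Cd5l, 81.6% for Vsig4, 45.5% for Timd4 and 38.5% for Marco.

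Of 16 transcription factors known for Kupffer cell identity, none was higher than in Clec4f-negative macrophages and 1 lower, near the shares over all genes (1.16% and 3.76%), with a median of 0.23 on the log2 scale. Nr1h3, which encodes LXR alpha and is required for the Clec4f programme, was at 414 CPM against 259. Spic, a haem-induced factor, was at 131 against 111, and Spi1, which encodes PU.1, at 472 against 400. The 1 that was lower was Runx3, a factor of lymphoid and some myeloid cells, at 0.710 CPM against 46.2. Id3, an inhibitor of helix-loop-helix factors named for Kupffer cells, was at 1121 CPM against 810, but stellate or fibroblast cells had 2725. Compared with all other cells, 7 of 15 factors were higher and 2 lower, beside 9.47% and 22.4% of all genes. Against endothelial cells the counts were 8 and 2, beside 11.6% and 23.5%.

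Among 15 scavenger and lectin receptors with enough counts, 4 were higher than in Clec4f-negative macrophages and none lower, beside 1.16% and 3.76% of all genes. Marco and Cd163, already counted in the surface list, were among them. The others were Colec12, a collectin with scavenger activity, at 65.6 CPM against 3.76, and Siglec1, a sialic acid receptor, at 43.1 against 17.4. Stellate or fibroblast cells had Colec12 at 65.5 CPM, the Kupffer cell level. Several receptors often used to describe Kupffer cells were higher in endothelial cells: Mrc1, the mannose receptor, was at 402 CPM in Kupffer cells and 1269 in endothelial cells, Cd36 at 548 and 1157, and the hyaluronan receptor Stab2 at 81.9 and 637.

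For the uptake of dying cells, 1 of 14 genes, Timd4, was higher than in Clec4f-negative macrophages and none lower, near the shares of 1.16% and 3.76% over all genes. The receptor tyrosine kinases Mertk and Axl were at 236 CPM against 170 and 460 against 343. Their bridging ligand Gas6 was at 18.2 CPM in Kupffer cells, 183 in endothelial and 242 in stellate or fibroblast cells, and the integrin-binding bridge Mfge8 at 4.81, 145 and 362. Both receptors were highest in the 2 macrophage groups and both ligands in the other 2 groups.

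Of 11 complement components, 5 were higher than in Clec4f-negative macrophages and none lower, beside 1.16% of genes: C6, Fcna, Cfp, C4b and C2. Properdin, the product of Cfp that stabilises the alternative pathway convertase, was at 1022 CPM against 474, with 6.17 in endothelial cells. C4b was at 156 CPM against 31.5 and C2 at 31.9 against 6.16, but stellate or fibroblast cells had 333 and 123 of these. Relative to all other cells, 3 components were higher and 6 lower, beside 9.47% and 22.4% of all genes. Among the lower was the C1 inhibitor gene Serping1, at 12.3 CPM against 1694 in stellate or fibroblast cells.

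Of 12 receptors for antibody and complement fragments, none was higher than in Clec4f-negative macrophages and 2 were lower, beside 1.16% and 3.76% of all genes. The activating receptors Fcgr1, Fcgr3 and Fcgr4 were at 220, 413 and 496 CPM against 204, 392 and 420. The 2 that were lower were the inhibitory receptor Fcgr2b, at 37.0 CPM against 204, with 1616 in endothelial cells, and the integrin Itgax, known as Cd11c, at 56.7 against 133. All other cells, pooled, had lower levels of 8 of the 12 and a higher level of 1, beside 9.47% and 22.4% of all genes.

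Iron and haem recycling, a main task of these cells, was carried at high levels in both macrophage groups. Of 14 genes, 11 were higher than in all other cells and 3 lower, beside 9.47% and 22.4% of all genes. None was higher than in Clec4f-negative macrophages and 3 were lower, beside 1.16% and 3.76%. The ferritin chains Fth1 and Ftl1 were at 14605 and 12348 CPM, against 17624 and 13052 in Clec4f-negative macrophages and 1176 and 2327 in endothelial cells. Hmox1, the haem oxygenase, was at 1131 CPM against 751 and 81.0. Blvrb, a biliverdin reductase, was at 716 against 524 and 108, and the phagosomal metal transporter Slc11a1 at 310 against 241 and 2.12. The 3 genes lower than in Clec4f-negative macrophages were the plasma proteins Trf (transferrin, 225 CPM against 749), Cp (ceruloplasmin, 12 against 44.0) and Hpx (hemopexin, 23.9 against 85.3), which hepatocytes make. None of the 3 was called lower without doublets and mixed barcodes, and Cp then stood at 0.30 on the log2 scale. That filter removes barcodes with several hepatocyte markers, so a fall of such genes was partly built into it.

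All 21 lysosomal genes lay within 2-fold of Clec4f-negative macrophages, as did nearly all genes tested, with a median of 0.10. Against all other cells 18 were higher, beside 9.47% of all genes, and 1 lower. The cathepsins Ctsb and Ctsd were at 5931 and 4325 CPM, against 1544 and 541 in endothelial cells. Cathepsin L was the exception, with Ctsl at 514 CPM in Kupffer cells and 2447 in endothelial cells.

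In lipid handling, 2 of 20 genes were higher and 2 lower than in Clec4f-negative macrophages, beside 1.16% and 3.76% of all genes. Apoc1, a small apolipoprotein, was at 2619 CPM against 449, and Scd1, a stearoyl-CoA desaturase that makes monounsaturated fatty acids, at 276 against 122. The fatty acid binding proteins Fabp4 and Fabp5 were lower, at 104 CPM against 463 and 382 against 1777. Apoe was the most abundant RNA of Kupffer cells, at 30158 CPM or 3.02% of their UMIs, and stood at 37357 CPM in Clec4f-negative macrophages. The lipoprotein lipase gene Lpl was at 1511 against 1431, and the phospholipid transfer protein Pltp at 1155 against 793.

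Genes known from lipid-associated macrophages, which gather around steatotic hepatocytes and fibrotic tissue, were lower or near equal: none of 12 was higher and 5 were lower, beside 3.76% of genes, with a median of -0.70. Trem2, a lipid receptor that defines this state, was at 130 CPM against 405. Gpnmb, a glycoprotein of the lysosome, was at 303 against 813, and Spp1, the matrix protein osteopontin, at 27.1 against 217. In Clec4f-negative macrophages 1 cell held 575 of the 1269 Spp1 UMIs, and the 39 cells with the most held 93.1%, so its level rests on few cells. The other 2 genes called lower were Fabp5 and Itgax. The macrophage elastase gene Mmp12 was at 1029 against 1167, and Lgals3, or galectin-3, at 2075 against 2764.

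**Figure D2:**
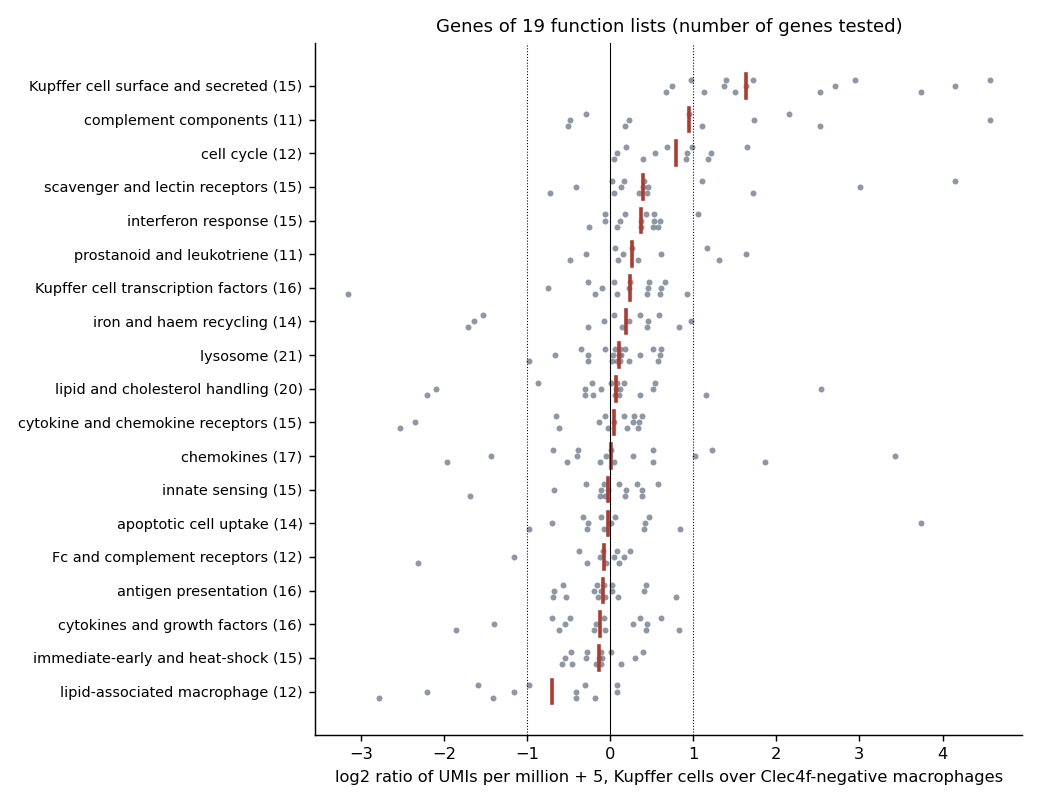
Median difference on the log2(CPM + 5) scale of each gene list between Kupffer cells and Clec4f-negative macrophages of 1 library, with 1 point per gene. The surface and secreted genes lie highest, with a median of 1.63, and the lipid-associated macrophage genes lowest, with a median of -0.70.

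Antigen presentation genes were within 2-fold of Clec4f-negative macrophages for all 16, as were nearly all genes tested, with a median of -0.09. Cd74, the invariant chain of MHC class II, was at 7644 CPM against 12212, and H2-Aa at 3717 against 5400. The costimulatory gene Cd86 was at 268 against 152. Class II genes were near absent from endothelial cells, with Cd74 at 93.1 CPM, and class I genes were shared, with H2-K1 at 1954 CPM in Kupffer and 2257 in endothelial cells. Relative to all other cells, 9 of the 16 were higher and none lower, beside 9.47% and 22.4% of all genes.

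Of 15 interferon response genes, 1 was higher than in Clec4f-negative macrophages, the transcription factor Irf7, at 387 CPM against 184, and none was lower. These counts are near the shares over all genes, 1.16% and 3.76%. Against all other cells 3 were higher and 2 lower, beside 9.47% and 22.4% of all genes. The 2 lower were Ifit1, at 19.2 CPM, and Isg15, at 115 CPM, with stellate or fibroblast cells at 77.6 and 671. Kupffer cells did not have the highest level of either gene.

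Of 17 chemokines, 4 were higher than in Clec4f-negative macrophages and 2 lower, beside 1.16% and 3.76% of all genes. Ccl24, which draws eosinophils, was at 180 CPM against 12.1 and at or below 1.06 in endothelial and stellate or fibroblast cells. The monocyte attractants Ccl2 and Ccl7 were at 196 CPM against 81.2 and 46.4 against 20.4, with stellate or fibroblast cells at 504 and 69.7. Cxcl13, which draws B cells, was at 20.7 against 2.05. The 2 that were lower were Ccl8, at 25.6 against 78.2, and Pf4, or platelet factor 4, at 18.3 against 86.2.

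No cytokine or growth factor of 16 was higher than in Clec4f-negative macrophages and 2 were lower, beside 1.16% and 3.76% of all genes. The 2 were the IL-6 family cytokine Osm, at 1.97 CPM against 20.2, and Bmp2, at 31.9 against 92.7, with 1427 in endothelial cells. The part of endothelial RNA in the Bmp2 and Fcgr2b differences was not tested. Il1b was at 325 CPM against 499, its antagonist Il1rn at 187 against 103, and Igf1 at 622 against 457. The stellate-directed ligands Tgfb1 and Pdgfb were at 225 against 234 and 72.9 against 82.9.

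Among 15 receptors for cytokines and chemokines 2 were lower and none higher than in Clec4f-negative macrophages, beside 3.76% and 1.16% of all genes. These were Ccr2, the receptor for Ccl2 that marks monocyte-derived cells, at 7.41 CPM against 66.9, and Cx3cr1, the fractalkine receptor, at 17.3 against 109. Of 15 innate sensing genes, 1 was lower, near the share over all genes. It was the glycolipid receptor Clec4e, at 1.42 against 15.7. Endosomal Tlr7 was at 59.6 against 51.6 and Tlr4, the receptor for endotoxin, at 44.4 against 32.8, with 35 in endothelial cells. Against all other cells 7 of 15 receptors and 10 of 14 sensing genes were higher and none lower, beside 9.47% and 22.4%.

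The series was made to study stearoyl-CoA desaturase and the oxylipins of the tumour environment, so the genes of prostanoid and leukotriene synthesis were set out. The phospholipase Pla2g4a, which frees arachidonic acid, was at 77.0 CPM in Kupffer cells, 48.9 in Clec4f-negative macrophages and 0.374 in endothelial cells. The constitutive cyclooxygenase Ptgs1 was at 331, 144 and 160 CPM, and the inducible Ptgs2 at 17.4, 15.2 and 0.187. Thromboxane synthase, Tbxas1, was at 137 and 114 CPM in the macrophages, 1.5 in endothelial and 0.781 in stellate or fibroblast cells.

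The prostaglandin D synthase Hpgds was at 79.6 CPM against 114, and Hpgd, which inactivates prostaglandins, at 537 against 170. Ltc4s, the leukotriene C4 synthase, was at 33.4 against 10.4. Hpgd, Ltc4s and Ptgs1 were the 3 of 11 genes called higher than in Clec4f-negative macrophages, and none was lower. Over all genes these shares were 1.16% and 3.76%. Cyp1b1 was at 0.631 CPM in Kupffer cells, against 7.54 in endothelial and 42.2 in stellate or fibroblast cells, and a UMI of it was in 5 of the 670 Kupffer cells, 0.746%, against 2.11% of endothelial and 24.5% of stellate or fibroblast cells, without thinning. After thinning to 2000 UMIs it was in 0 of 625 Kupffer cells, which allows up to 0.480% of cells with a UMI at that depth, and in 7.43% of stellate or fibroblast cells. Cyp1a1 had no UMI in Kupffer cells, and the leukotriene B4 receptors Ltb4r1 and Ltb4r2 were at 1.03 and 0.237 CPM.

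**Figure D3:**
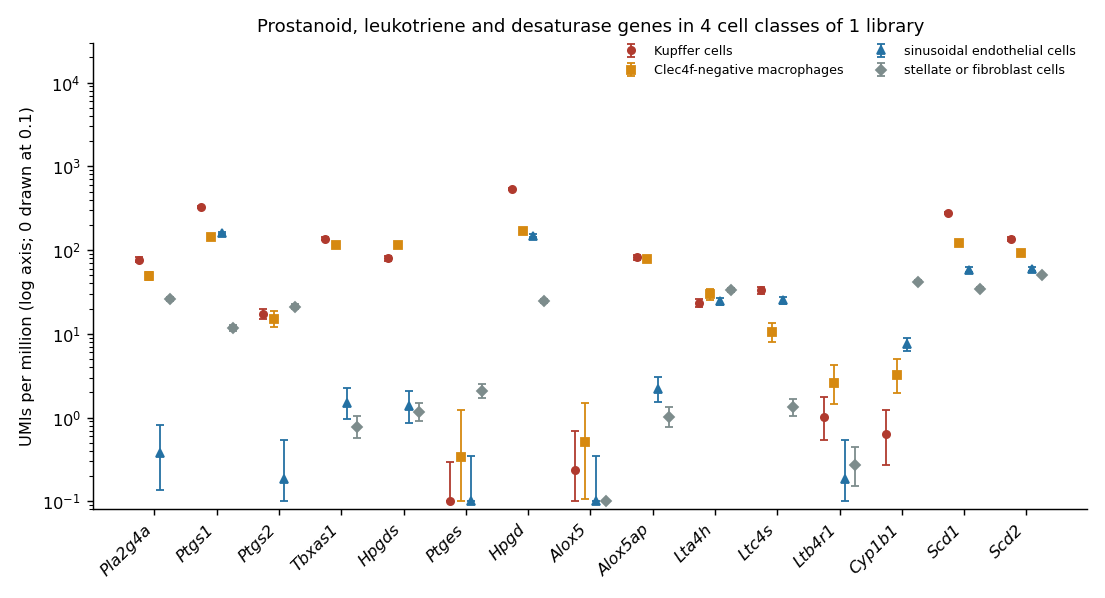
Levels in CPM (log axis) of desaturases and of genes of prostanoid and leukotriene synthesis in 4 cell groups of 1 library, with exact Poisson 95% intervals. Tbxas1 is at 137 and 114 CPM in the macrophage groups and at 1.5 CPM or below in the others, while Cyp1b1 is highest in stellate or fibroblast cells, at 42.2 CPM.

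Of the desaturases, Scd1 was detected in 35.8% of thinned Kupffer cells, 15.3% of Clec4f-negative macrophages, 9.90% of endothelial and 5.74% of stellate or fibroblast cells. Scd2 was at 135 CPM in Kupffer cells, 93.4 in Clec4f-negative macrophages, 59.7 in endothelial and 50.6 in stellate or fibroblast cells. Its shares were 24.2%, 13.6%, 10.5% and 9.78%. Ptgs1 was detected in 43.0% of Kupffer cells and 24.6% of endothelial cells, and Tbxas1 in 25.6% and 0.206%.

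Among genes outside the lists, those that led over Clec4f-negative macrophages on the log2(CPM + 5) scale included Fabp7, a fatty acid binding protein, at 755 CPM against 147, and Pcolce2, an enhancer of procollagen processing, at 148 against 19. The alarmin S100a8 was at 154 CPM against 30.1, in 17.3% of thinned Kupffer cells, while its usual partner S100a9 was at 1.03 CPM. H2-M2, a non-classical MHC gene, was lowest on that scale among genes at 50 CPM or more in the higher group, at 10.0 CPM against 135. The galectin Lgals1 was at 31.8 against 247 and Anxa1, a mediator that limits inflammation, at 19.2 against 141.

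Against endothelial cells, the genes that led on the log2(CPM + 5) scale among those at 50 CPM or more were Cd5l, Vsig4, lysozyme (Lyz2, 4846 CPM against 44.1), Marco and the cathepsin Ctss (2050 against 16.4). The lowest were the endothelial genes Ptprb, at 47.1 CPM against 2773, Cyp26b1, Clec14a and Kdr. Against all other cells the lowest were the collagens Col1a2 and Col1a1, at 9.62 CPM against 1367 and 8.28 against 1205. The rule limits Dcn, Col3a1 and Colec11, and 4588 of the other barcodes were stellate or fibroblast cells. Low collagen was thus partly set by the selection.

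Immediate-early and heat-shock genes respond to tissue digestion. Of 15, none was called higher against any of the 3 groups (beside 9.47%, 1.16% and 11.6% of all genes), 7 were lower than in all other cells (beside 22.4%) and 7 lower than in endothelial cells (beside 23.5%). With TMM scaling these counts became 3 and 3, while 1959 of all 10314 genes were lower than in all other cells. Fos was at 902 CPM against 1322 in Clec4f-negative macrophages and 2297 in endothelial cells, and Jun at 1066 against 1156 and 3484.

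Variation among the Kupffer cells themselves was measured in the 561 cells with 5000 or more UMIs, each thinned to 5000. The ratio of variance to mean (Fano factor) had a median of 1.06 over 6974 genes, near the value of 1 for counting noise. Apoe had the highest, at 82.4, with a mean of 157 UMIs per thinned cell and up to 953. Marco was at 31.2: it was present in 183 cells, 32.6%, and the 10% of cells with the most held 75.5% of its UMIs. Cxcl9, Mmp12 and Cxcl10 were at 18.3, 17.5 and 17.5. Hbb-bs (44.3, in 13 cells) and Ly6d (18.6, in 11 cells) came from few cells.

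**Figure D4:**
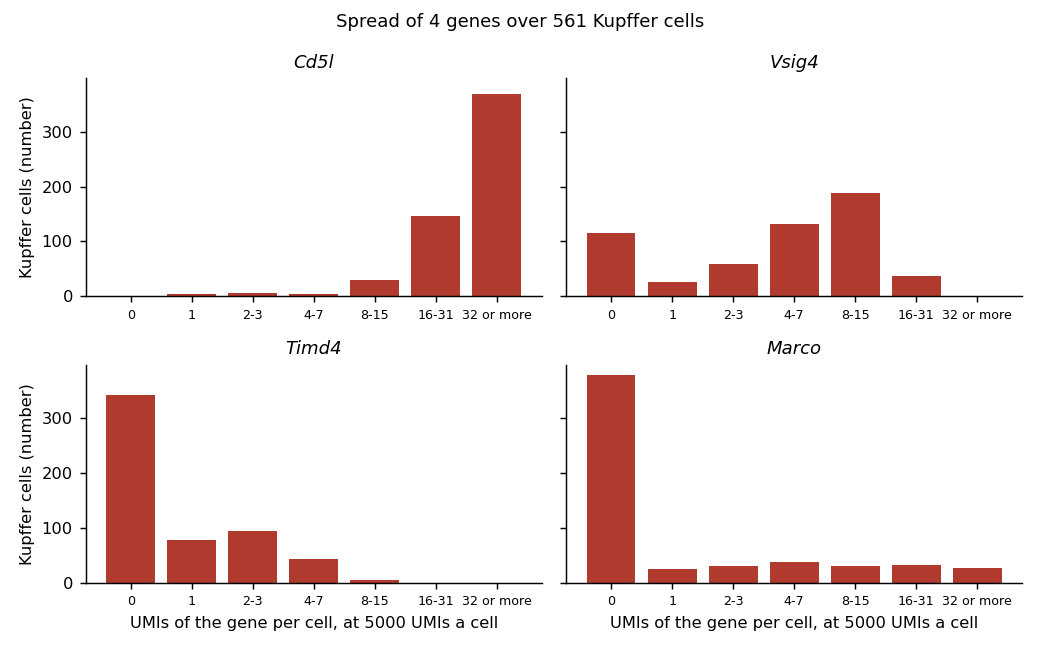
Number of Kupffer cells (561 cells thinned to 5000 UMIs) by the UMIs of Cd5l, Vsig4, Timd4 and Marco they held. Cd5l reached 32 or more UMIs in 368 cells, while Timd4 was at 0 in 341 cells and Marco in 378.

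Cells with and without Timd4, which is known as a marker of embryo-derived Kupffer cells, were compared within this set, where 220 cells held Timd4 and 341 did not. Their median depth before thinning was 20747 and 20563 UMIs. Of 8881 genes, 69 were higher and 120 lower by 2-fold or more in cells with Timd4. These calls describe 1 library, and absence at 5000 UMIs is partly a matter of sampling.

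The genes higher with Timd4 included Cdkn2a, a cell cycle inhibitor, at 59.1 CPM against 5.87, Marco at 1862 against 389 and the complement genes C2, C4b and C6, at 79.1 against 14.1, 315 against 101 and 537 against 193. Cd163 was at 41.8 against 2.93. Clec4f, on which the cells were selected, was at 5458 against 3224. Spic was at 126 against 123, a ratio of 1.03 (0.822 to 1.28).

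Lower with Timd4 were Cd207, or langerin, at 47.3 CPM against 317, the collagenase Mmp13 at 41.8 against 176, and Gpnmb at 103 against 328. Trem2 was at 68.2 against 161, Fabp5 at 165 against 430 and Il1b at 225 against 414. The monocyte receptor Cx3cr1 was at 0.909 against 35.8. The endothelial genes Ptprb, Aqp1 and Fcgr2b moved with this split, at 37.3 against 104, 30.9 against 87.4 and 20.9 against 73.9 CPM, and their part in it was not tested. Alb was at 148 against 127.

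Timd4 and Marco occurred together. Marco was present in 121 of the 220 cells with Timd4, 55% (48.2 to 61.7%), and in 62 of the 341 without it, 18.2% (14.2 to 22.7%). Thus 121 cells held both genes, 99 Timd4 alone, 62 Marco alone and 279 neither. Clec4f descended through these 4 groups, at 5681, 5186, 3832 and 3089 CPM, and Cd207 went the other way, at 34.7, 62.6, 135 and 357 CPM. Cd74 was lowest with both genes, at 4712 CPM, and was 7515, 7303 and 9234 in the other 3. Cdkn2a was at 67.8, 48.5, 19.4 and 2.87 CPM, and Gpnmb at 79.3, 131, 161 and 366.

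**Figure D5:**
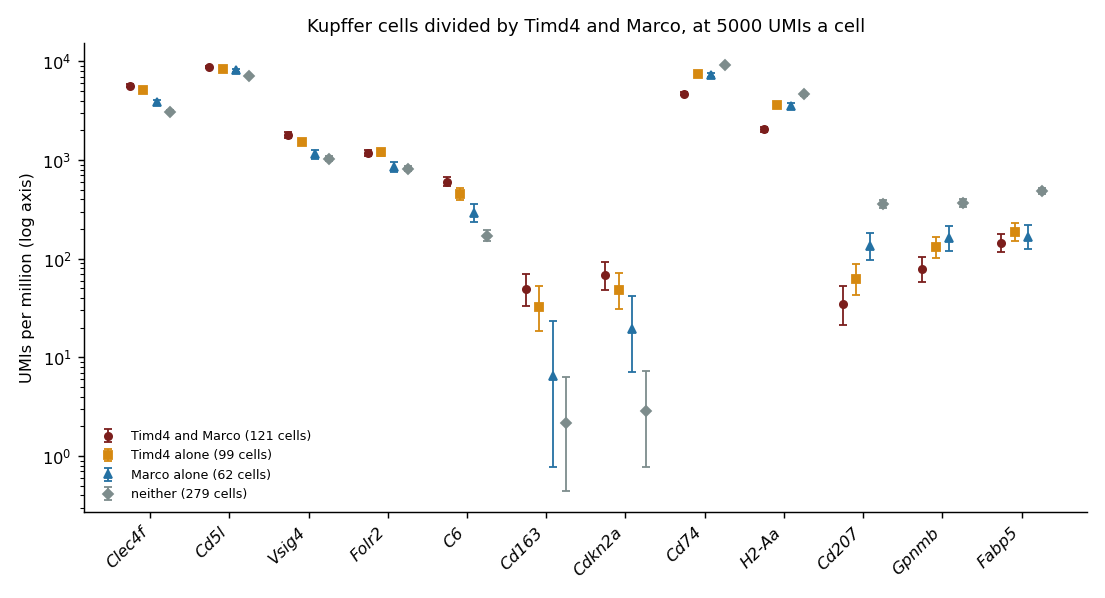
Levels in CPM of selected genes in 561 Kupffer cells of 1 library, grouped by the presence of Timd4 and Marco after thinning to 5000 UMIs (121 cells with both, 99 with Timd4 alone, 62 with Marco alone, 279 with neither), with exact Poisson 95% intervals. Clec4f descends from 5681 to 3089 CPM and Cd207 rises from 34.7 to 357 CPM across the groups.

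MHC class II varied over a wide range. The sum of H2-Aa, H2-Ab1, H2-Eb1 and Cd74 per 10000 UMIs ran from 0 to 719, with quartiles of 94.3, 168 and 255. Between the 141 cells with the highest and the 141 with the lowest sum, Marco was at 186 against 2331 CPM and Timd4 at 80.9 against 370. Ciita, the master activator of class II genes, was at 119 against 35.5, H2-DMa, which loads peptides, at 664 against 243, and Il1b at 492 against 184. Cd5l was at 6800 against 8180, so it was present at both ends.

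The cells were also ranked by Clec4f, the gene on which the rule selected them, so this split is a description and no support for the rule. In the 141 cells with the most Clec4f per UMI (58.0 or more per 10000) against the 141 with the least (17.9 or fewer), Cd5l was at 10105 against 5806 CPM, Vsig4 at 2061 against 647 and Timd4 at 403 against 68.1. Folr2 was at 1543 against 485 and C6 at 623 against 118. Gpnmb was at 75.2 against 434, Fabp5 at 48.2 against 759, Trem2 at 73.8 against 228 and Cx3cr1 at 7.09 against 55.3. Of genes of other cell types, Alb was at 136 against 135, the endothelial gene Stab2 at 106 against 108 and the stellate gene Dcn at 85.1 against 41.1. Cdh5, which is on the Kupffer cell surface list but was highest in endothelial cells, was at 495 against 179. Median depth was 18117 against 23406 UMIs.

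Genes of cell division were held by a small part of the population. After thinning to 5000 UMIs, 46 of 561 Kupffer cells, 8.20% (6.07 to 10.8%), held at least 3 of 8 genes of S phase and mitosis, against 3.41% of Clec4f-negative macrophages, 1.85% of endothelial cells and 1.09% of stellate or fibroblast cells. Without thinning the shares were 9.85%, 4.90%, 1.71% and 1.72%. The 46 cells held 88.3% of the UMIs of these genes, and their median depth was 30948 UMIs against 20364 in the rest. Ube2c and Birc5, which act in mitosis, were at 47.6 and 45.4 CPM in Kupffer cells against 11.8 and 17.3 in Clec4f-negative macrophages. With Cenpf they were the 3 of 12 cell cycle genes called higher, beside 1.16% of all genes. This count depended on the setting: it was 1 with the mean over cells and 6 without doublets and mixed barcodes. Against all other cells the latter setting took the count from 6 to 3. In that comparison mixed barcodes were removed from the Kupffer cells alone. They fell from 670 to 254, and the other cells from 9200 to 8981. Timd4 was present in 30.4% of the 46 cells and in 40.0% of the rest.

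Across the 561 cells, the count of Mki67, the proliferation antigen, followed that of Top2a, the mitotic topoisomerase (Pearson r 0.77). Clec4f followed Folr2 (0.55), Cxcl9 followed Cxcl10 (0.50) and Marco followed Timd4 (0.45), while Marco and Cd74 were opposed (-0.36). These cells share 1 library and the correlations are descriptions of it.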

How the data were processed

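RNA was measured in single cells of 5 sorted liver libraries with a droplet kit of 10x Genomics, for which the labels name both version v3.1 and version v2. Per the labels, the authors counted UMIs with Cell Ranger 3.1.0 on mm10, while for the library of Kupffer cells the file header states 6.1.2. The deposited values are raw UMI counts per gene and barcode, with no normalization, and every barcode had at least 500 UMIs. Free RNA was not removed, and doublets were kept after Scrublet had been run as a check.

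Groups were taken from the sample titles. Barcodes were selected by the rule given above. Macrophages without Clec4f met the other parts of the same rule. Sinusoidal endothelial cells held 3 or more of their marker genes and no UMI of Clec4f or Cd3e. Barcodes with enough macrophage genes to meet that part of the rule were not counted among them. Nor were barcodes in which the stellate and fibroblast genes reached the limit of the rule. Counts were summed per group and divided by the total (CPM). Genes with a mean of at least 5 CPM over both groups were compared on the log2(CPM + 5) scale, and called at 2-fold. Sums have exact Poisson 95% intervals, ratios and shares exact binomial ones. With 12681313 UMIs in the Kupffer cells, 3 UMIs correspond to 0.237 CPM. For shares and for variation, each cell was thinned to 2000 or 5000 UMIs and shallower cells were left out (seed 7), with a mean of at least 0.05 UMI for a Fano factor. Clusters were made without the genes of the rule.

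Genes were named by rule: per comparison the 15 with the largest and the 15 with the smallest log2(CPM + 5) difference at 50 CPM or more in the higher group; per gene list the 4 most abundant in Kupffer cells and those farthest from 0; all prostanoid genes; the 15 with the highest Fano factor; and the 10 highest and lowest between cells with and without Timd4. Other members of the lists were named after their values were seen. The members and the gene lists were chosen with earlier results of these data known. Gene positions come from GENCODE M21, in which 30934 of the 31053 gene identifiers were found. Tools were scanpy 1.11.5 with igraph 0.11.9 for clusters, scipy 1.17.1 for intervals, numpy 2.4.6, pandas 2.3.3 and matplotlib 3.10.9 in Python 3.11.15, and edgeR 4.0.16 in R 4.3.3 for TMM factors. The scripts were tested on simulated data. Alternatives were other thresholds of the rule, scaling, pseudocount, filter, thinning and the removal of doublets.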

Additional observations from a re-analysis of the deposited data

How the results depend on the processing

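With 1 library per group, no result has a replicate error, and differences between livers, sorts and cell states cannot be told apart. No paired analysis was possible because each group is 1 library and replicate numbers were given in accession order only. The Kupffer cell share was 7.43% with 1 or more Clec4f UMIs and 6.18% with 5 or more. Genes higher than in Clec4f-negative macrophages, 105 in the report, were 164 with a pseudocount of 1 CPM, 184 without doublets and mixed barcodes, 162 when hepatocyte genes were not counted as mixing, and 347 without Cd5l-bearing macrophages. Genes lower, 341, were 137, 140 and 836 under the last 3. Of the list genes, 29 were higher and 18 lower, and 65 and 35 without the Cd5l-bearing macrophages. Over all genes these counts went from 105 to 347 and from 341 to 836, so the rise was not limited to the lists. The settings on hepatocyte genes and on Cd5l were chosen after seeing the data, and the latter fixed the call of Cd5l itself. Without thinning and at 5000 UMIs, shares of Kupffer cells were 45.5% and 39.2% for Timd4, 38.5% and 32.6% for Marco, 99.6% and 99.8% for Cd5l, and 81.6% and 79.3% for Vsig4. Genes with a Fano factor of 2 or more fell from 334 to 122 at 2000 UMIs, as fewer UMIs were kept. Of 3865 values of named genes under alternatives, 2466 moved by less than their counting interval, 1391 moved further with the same sign and 8 changed sign. Against Clec4f-negative macrophages these were Cp at 0.30 and Fabp1 at 0.0077 on the log2 scale without doublets and mixed barcodes, and Serpina1e at 0.048 as a mean over cells, and at 0.15 and 0.55 without mixed barcodes, counting hepatocyte genes or not. Against endothelial cells they were Cp at 0.14 and Spp1 at 0.93 and 0.41 without mixed barcodes. Fabp1 was among the markers that defined mixed barcodes, so its change was partly set by that filter. The cause of the other changes was not tested.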

Other observations

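A further split of the Kupffer cells followed the interferon-induced chemokines. Cxcl9, which draws activated T cells, was present in 90 of the 561 thinned cells, and Cxcl10 was at 747 CPM in these against 35.2 CPM in the 471 cells without Cxcl9. The interferon-induced GTPase Gbp2 was at 431 against 140 CPM, Tnf at 104 against 31.4, and Cd40, a costimulatory receptor, and Ccl5 at 57.8 against 19.5 and 57.8 against 18.7. Irf7 went the other way, at 289 against 425 CPM, and Isg15 was at 209 against 97.7. Cd5l and Clec4f were lower with Cxcl9, at 5707 against 8192 and 2851 against 4339 CPM, and Timd4 was at 180 against 202. The genes of this split were chosen with earlier results of these data known, and the values describe 1 library with no test.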
